A study of Mus musculus with 20 samples.

Results

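The genes described here were induced by a strong Wnt signal in control nephron progenitor cells (NPCs). They were already raised at a weak signal in some cultures labelled β-catenin knockout (KO). This name follows the labels throughout, since the level of Ctnnb1 itself could not be checked. The genes were chosen by measured values, as normalized counts, in which the reads of a gene are scaled by a size factor of the library. The mean of the control libraries had to be at least 50 in high CHIR and at least 2 times their mean in low CHIR. In low CHIR, the β-catenin KO library of replicate 2 and that of replicate 3 each had to be at least 3 times the control library of the same date. In high CHIR both of these β-catenin KO replicates had to exceed 50% of the lowest control library. Of 31130 genes, 749 met the control criteria and 73 met all of them. Axin2, Notum, Sp5, Lef1, Krt23 and Mmp9, 6 genes in all, were then left out by name, which left 67 members. A symbol was known for 41 of them, and the other 26 are known here only by an Ensembl identifier, so the omission by name could not be applied to these.

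The cells were NPCs from mouse kidneys at embryonic day 16.5, carrying Cas9-eGFP in all groups, and those expressing the mCherry reporter that was delivered with the single guide RNAs (sgRNAs) were sorted for RNA. CTRL cells received an sgRNA against GFP, β-catenin KO cells sgRNAs against Ctnnb1, α-catenin KO cells sgRNAs against Ctnna1, and quadruple cadherin knockout (QCKO) cells a mixture of sgRNAs for Cdh2, Cdh3, Cdh4 and Cdh11. Each was cultured in 1.25 µM (low) or 5 µM (high) CHIR. There were 3 CTRL and 3 β-catenin KO libraries, 2 α-catenin KO libraries (replicates 1 and 3) and 2 QCKO libraries (replicates 2 and 3) per CHIR concentration, 20 in all, and libraries with the same replicate number carry the same date in their labels, which do not say of which step. A knockout culture is a transfected pool, not a clone. Libraries held 18124772 to 28472412 reads.

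CHIR blocks GSK3β, which otherwise tags β-catenin to be degraded. Stabilized β-catenin enters the nucleus and activates genes together with Lef/Tcf factors, which recognise the letters CTTTG followed by AT or TT. In the developing kidney a weak Wnt input maintains Six2-expressing NPCs, and a strong one starts nephron formation with genes such as Wnt4, Jag1 and Lhx1. Axin2 and Notum are feedback genes that rise wherever the pathway is active. β-Catenin also links cadherins to α-catenin at cell contacts.

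The sgRNAs that the study lists against Ctnnb1 for a knockout period of 48 h are shown because the rule rests on the β-catenin KO cultures. Ctnnb1 lies at chr9:120933400-120960507 in the RefSeq annotation of GRCm38.p6. The list has 4 entries but 3 different sequences, since the guides entered for exon 3 and for exon 6 under the numbers 5 and 6 are the same. All are printed 5′ to 3′ without the adjacent motif. The labels do not say which guide went into which culture.
Ctnnb1 sgRNA1, exon 2: atgagcagcgtcaaactgcg
Ctnnb1 sgRNA3, exon 3: agccaagcgctggacattag
Ctnnb1 sgRNA5, exon 3: gagattatgcagtgtcgtga

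The libraries labelled β-catenin KO fell into different kinds by date. No identifier here pairs with Ctnnb1, so its own level could not be checked. In low CHIR, Axin2 was 39.3, 71.5 and 61.4 in CTRL replicates 1 to 3, and 14, 559.7 and 384 in the libraries labelled β-catenin KO. In high CHIR it was 357, 435 and 391 in CTRL against 18.5, 743 and 687. Thus replicate 1 lay below CTRL and replicates 2 and 3 lay above it at both concentrations. Notum, at 3.57, 6.5 and 5.29 in CTRL low CHIR, was at 1.07, 562 and 325 in the libraries labelled β-catenin KO. Wnt4 was 30.1 in replicate 1 but 831 and 634 in replicates 2 and 3, against 41.1 to 72.6 in CTRL low CHIR. The progenitor factor Six2 was 798, 409 and 467 in β-catenin KO high CHIR, above CTRL on every date, where it was 69.2, 64.1 and 83.8. Over the 500 most variable genes, the replicate 1 low CHIR library lay nearest to CTRL low CHIR of its date, while those of replicates 2 and 3 lay nearest to each other, also with the members taken out. Of the other targets, Ctnna1 was between 3564 and 3790.2 in the 4 α-catenin KO libraries and between 5817 and 11092 in the other 16. In QCKO, Cdh11 was 2519 and 1818 in low CHIR (CTRL 5112, 3594 and 4295) and 1005 and 589 in high CHIR (CTRL 2092, 1883 and 1968), lower than every CTRL library of the same CHIR. Cdh3 and Cdh4 overlapped CTRL, with 3347 and 3481 for Cdh3 in QCKO high CHIR (CTRL 3588, 2557 and 3720) and 10276 and 6666 for Cdh4 (CTRL 8840, 7756 and 7647). Cdh2 was 2592 and 2071 in QCKO low CHIR (CTRL 4920.4, 3857 and 2241) and 1222 and 1236 in high CHIR (CTRL 2439, 989 and 1359), overlapping CTRL in both. A guide need not lower the RNA of its target.

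**Figure D1:**
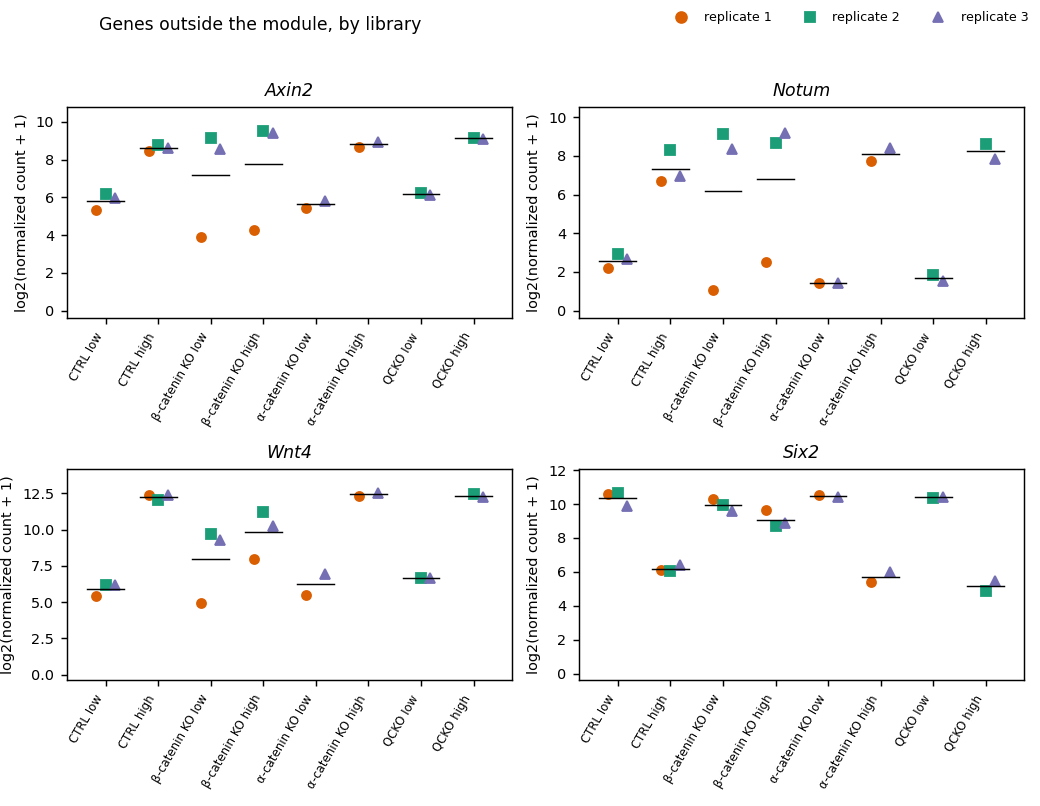
Axin2, Notum, Wnt4 and Six2 in each library, as log2(normalized count + 1) on the vertical axis against group and CHIR concentration. Points are libraries with replicate number by shape and colour, and the line is the mean of the logs; β-catenin KO replicate 1 sits at or below the CTRL low CHIR libraries for Axin2, Notum and Wnt4 in low CHIR, and replicates 2 and 3 sit above them.

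All statements on β-catenin KO replicates 2 and 3 and on CTRL describe values that chose the members, so no test is given for them. Among 16691 genes with a mean of at least 10 over all libraries, 4.49% met the control criteria and 1.56% were at least 3 times CTRL in low CHIR on both of these dates. At the limits of the rule, Serpinb8 was just inside the minimum in high CHIR with a CTRL mean of 50.8, and an unnamed gene was just outside at 49.0. Unnamed genes lay at 2.01 times and 1.85 times on either side of the CTRL induction limit. For the β-catenin KO excess in replicate 2, an unnamed gene at 3.07 times was inside, and Mt3 at 2.999 times and Cdh13 at 2.98 times were outside. In replicate 3, Rnase4 at 3.04 times was inside and Lypd6 at 2.97 times and Gpr155 at 2.96 times were outside. For the high CHIR limit, Arhgef3 at 0.671 times the lowest CTRL library was inside in replicate 2 and E330013P04Rik at 0.499 times outside. In replicate 3, Sorbs2 at 0.508 times was inside and Lhfpl2 at 0.231 times outside. Krt23, one of the genes left out by name, had 0, 1.08 and 2.12 in CTRL low CHIR and 5.37, 3750.3 and 1438 in β-catenin KO low CHIR.

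Across the members, the median log2 ratio of β-catenin KO to CTRL in low CHIR was 0.18 in replicate 1, 3.51 in replicate 2 and 2.52 in replicate 3. Against the mean of the 3 CTRL low CHIR libraries the median in replicate 1 was -0.24. For the 682 control-induced genes outside the set it was 0.07, 0.26 and 0.40. Replicate 2 exceeded replicate 3 in low CHIR for 59 of 67 members, as against 272 of 682 other induced genes and 49.5% of all genes. In high CHIR the member medians against CTRL were -2.01, 1.31 and 1.24. The median member was thus below the fully induced control in replicate 1 and above it on the other dates. Within β-catenin KO, the median ratio of high to low CHIR was 1.42 in replicate 2 and 1.97 in replicate 3, where CTRL had 6.14 and 6.48. High CHIR was at least 2 times low CHIR for 15 members in replicate 2 (4.58% of all genes) and for 33 in replicate 3 (4.08%). These are 22.4% and 49.3% of the members, where 29.2% and 15.5% of the 682 other induced genes passed. In bulk RNA a smaller share of cells with a gene on and less RNA in each cell cannot be told apart.

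**Figure D2:**
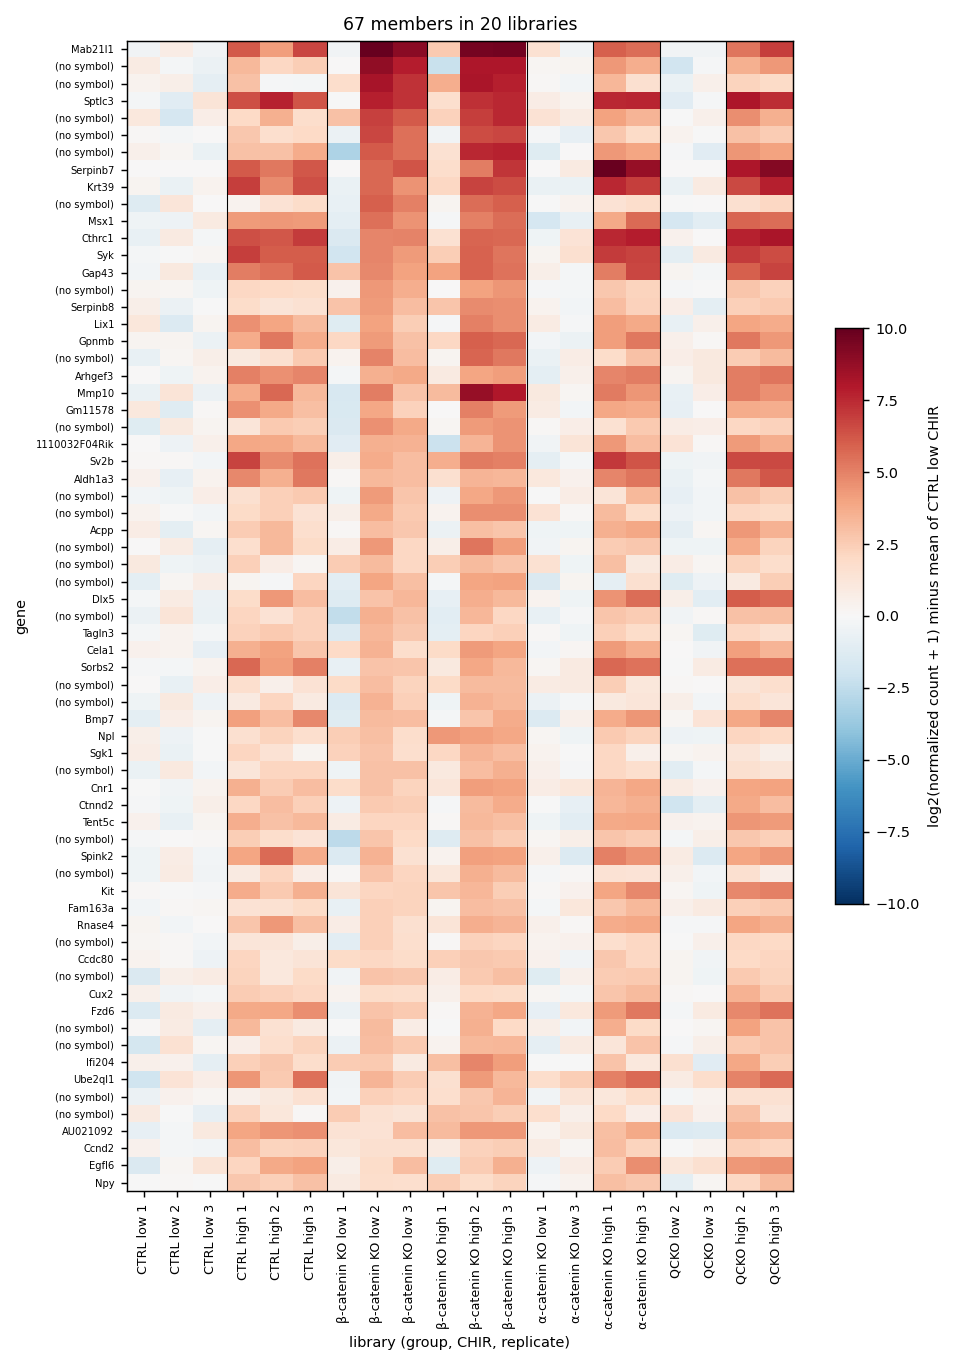
All 67 members (rows) in 20 libraries (columns), coloured by log2(normalized count + 1) minus the mean of the CTRL low CHIR libraries, with rows ordered by the mean ratio of β-catenin KO to CTRL in low CHIR over replicates 2 and 3. The β-catenin KO low CHIR columns of replicates 2 and 3 are red or pale red in every row (medians 3.51 and 2.52 against CTRL of the same date), while replicate 1 and the α-catenin KO and QCKO low CHIR columns are mostly pale.

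Secreted ligands and receptors formed one group of members. Bmp7, the BMP ligand that NPCs need for survival, was 23.2, 74.7 and 54 in CTRL low CHIR and 806, 391 and 1270.2 in CTRL high CHIR. In β-catenin KO low CHIR it was 19.3, 427 and 399.6, and in high CHIR 39.3, 323 and 615. The replicate 1 libraries at both concentrations lay below the highest CTRL low CHIR value, and replicates 2 and 3 lay between 323 and 615, around the lowest CTRL high CHIR value of 391. Npy, which encodes the peptide neuropeptide Y, was 442, 477 and 431 in CTRL low CHIR and 851, 1534 and 1461 in β-catenin KO low CHIR. In high CHIR it was 2413, 1573 and 2131 in β-catenin KO, against 2849.8, 2296 and 3489 in CTRL. Npy is thus a member for which replicate 1 was also above CTRL in low CHIR, at 1.93 times. Kit, the receptor tyrosine kinase for stem cell factor, was 152, 139.7 and 129 in CTRL low CHIR and 344, 616 and 641 in β-catenin KO low CHIR, below the CTRL high CHIR values of 1877, 863 and 1669.9. Fzd6, a Frizzled receptor for Wnt ligands, was 8.03, 42.2 and 32.8 in CTRL low CHIR and 15, 169 and 145 in β-catenin KO low CHIR. Cthrc1, a secreted glycoprotein, went from 21.4, 69.3 and 30.7 in CTRL to 12.9, 1104 and 1120.2 in β-catenin KO low CHIR, with 3283, 2691 and 4623 in CTRL high CHIR. Fzd6 and Cthrc1 are next to each other among members on chromosome 15 in the GRCm38.p6 annotation.

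Transcription factors were represented by Msx1, Dlx5 and Cux2, all homeobox genes. Msx1, a target of BMP and Wnt signals in many tissues, was 3.57, 3.25 and 10.6 in CTRL low CHIR and 112, 124 and 118 in CTRL high CHIR. In the libraries labelled β-catenin KO low CHIR gave 2.15, 277 and 135, and high CHIR gave 4.62, 194 and 289. Both low CHIR values of replicates 2 and 3 were above every CTRL high CHIR value, and both replicate 1 values lay below the highest CTRL low CHIR value. Dlx5 was 12.5, 27.1 and 9.53 in CTRL low CHIR and 5.37, 112 and 155 in β-catenin KO low CHIR. Cux2 was 143, 79.1 and 85.7 in CTRL low CHIR and 125, 356 and 337 in β-catenin KO low CHIR, under its 591, 502 and 421 in CTRL high CHIR. Mab21l1, a nuclear protein required for eye development, stood out by the size of its values. It had 0, 1.08 and 0 in CTRL low CHIR and 87.3, 22.4 and 128 in CTRL high CHIR. In β-catenin KO, low CHIR gave 0, 1304 and 659 and high CHIR 6.93, 986 and 998, so that replicates 2 and 3 were above every CTRL library at both concentrations.

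A cyclin and several enzymes and signalling proteins are described together here. Ccnd2, the G1 cyclin D2, had 6423, 4062 and 3842 in CTRL low CHIR and 38741, 22081 and 23254 in CTRL high CHIR. It was 10139.6, 13729 and 14118 in β-catenin KO low CHIR and 8431, 22809 and 25100.1 in β-catenin KO high CHIR. The low CHIR values lay between both CTRL groups, and in high CHIR replicate 1 was at 0.218 times CTRL of its date. Aldh1a3, an enzyme that makes retinoic acid, was 241, 98.6 and 223 in CTRL low CHIR and 195, 1703 and 1517 in β-catenin KO low CHIR. In high CHIR it was 4875, 2075 and 6746 in CTRL and 529, 1859.8 and 1755 in β-catenin KO. Syk, a cytoplasmic tyrosine kinase, was 9.82, 10.8 and 12.7 in CTRL low CHIR and 2.15, 362 and 229.8 in β-catenin KO low CHIR. Arhgef3 was 56.2, 42.2 and 73 in CTRL low CHIR and 49.4, 664 and 777 in β-catenin KO low CHIR. Each of these had replicates 2 and 3 apart from all 3 CTRL low CHIR libraries, which the rule largely sets, so nothing is read from it. Sptlc3, a subunit of the enzyme that starts sphingolipid synthesis, was 0.893, 0 and 4.23 in CTRL low CHIR and 1.07, 461 and 328 in β-catenin KO low CHIR. Npl, which degrades sialic acid, was 209.7, 99.7 and 133 in CTRL low CHIR and 775, 1122 and 474 in β-catenin KO low CHIR, with a further 2830.4, 2423 and 2036 in β-catenin KO high CHIR. Its CTRL high CHIR values of 433, 678 and 457 were below each β-catenin KO high CHIR value, replicate 1 included.

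**Figure D3:**
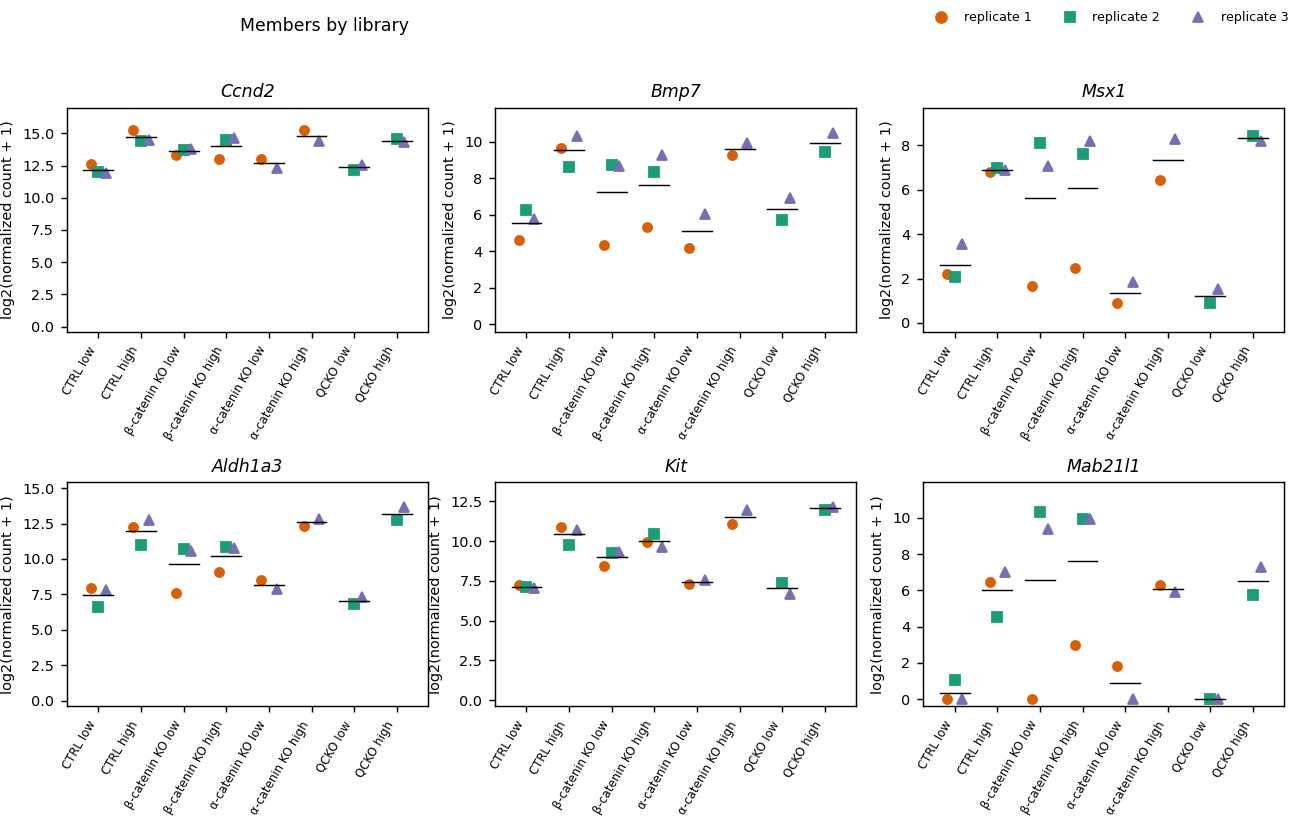
Ccnd2, Bmp7, Msx1, Aldh1a3, Kit and Mab21l1 in each library, as log2(normalized count + 1) against group and CHIR concentration, with libraries as points (replicate by shape and colour) and the mean of the logs as a line. In β-catenin KO, replicates 2 and 3 lie together and replicate 1 lies below them in low CHIR for all 6, most widely for Mab21l1 (0 against 1304 and 659).

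Members of the cytoskeleton and of the cell surface included Sorbs2, an adaptor of actin structures, at 162, 158 and 222 in CTRL low CHIR and 104, 1288 and 1220.3 in β-catenin KO low CHIR. Its CTRL high CHIR values of 9792, 3279 and 5765 were well above those, and β-catenin KO high CHIR had 344, 2550.2 and 1667. Gpnmb, a transmembrane glycoprotein, was 129, 129 and 70.9 in CTRL low CHIR and 458, 2035 and 802 in β-catenin KO low CHIR, and reached 438, 6637 and 5617 in β-catenin KO high CHIR. Ctnnd2, δ-catenin, which binds cadherin tails, was 27.7, 22.7 and 46.6 in CTRL low CHIR and 21.5, 196 and 177 in β-catenin KO low CHIR. Ccdc80, an extracellular matrix protein, was 751, 636 and 399 in CTRL low CHIR and 2118, 2446 and 2007 in β-catenin KO low CHIR, so that its 3 β-catenin KO libraries did not overlap CTRL. Lix1 varied widely between dates, with 240.1, 41.2 and 133 in CTRL low CHIR and 46.2, 1818 and 617 in β-catenin KO low CHIR. Rnase4, a secreted ribonuclease, was 297, 196 and 246 in CTRL low CHIR and 401, 1290.4 and 745 in β-catenin KO low CHIR.

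Proteases and protease inhibitors were also present. Mmp10, a matrix metalloproteinase, was 0.893, 6.5 and 1.06 in CTRL low CHIR, 0, 106 and 21.6 in β-catenin KO low CHIR, and 26.6, 1267 and 799 in β-catenin KO high CHIR, where CTRL had 38.6, 162 and 27.4. Serpinb8, an intracellular serpin, was 25, 10.8 and 15.9 in CTRL low CHIR and 126, 324 and 146 in β-catenin KO low CHIR. Serpinb7, a neighbour of Serpinb8 on chromosome 1, was at 0 in the 3 CTRL low CHIR libraries and at 0, 53 and 76.1 in β-catenin KO low CHIR. The protease inhibitor Spink2 was 0.893, 3.25 and 1.06 in CTRL low CHIR and 0, 27 and 6.41 in β-catenin KO low CHIR. Of this group, replicate 1 was above CTRL for Serpinb8 and at 0 for the other 3.

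Relative to fully induced controls the members split. In 35 members, β-catenin KO low CHIR was at or above CTRL high CHIR of the same date in both replicates 2 and 3, which held for 35% of 16691 genes, while among the other 682 induced genes it held for 8. These 35 included Ccdc80, Tagln3, Npl, Sgk1, Sptlc3, Msx1, Mab21l1, Fam163a, Serpinb7 and Serpinb8, and 25 genes without a symbol. In 21 members, all with a symbol, it was below on both dates, among them Ccnd2, Sorbs2, Aldh1a3, Cthrc1, Kit and Syk. Symbols were available only for genes listed in the comparisons of the study, so that named and unnamed members differ in how they were selected. For 2 members without a symbol the β-catenin KO values of replicates 2 and 3 were far above those of any CTRL library. ENSMUSG00000020218 was 63.4, 31.4 and 23.3 in CTRL low CHIR, 342, 155 and 197 in CTRL high CHIR, and 37.6, 17452 and 8517 in β-catenin KO low CHIR. ENSMUSG00000022180 was 30.3, 34.7 and 11.6 in CTRL low CHIR, 186, 21.4 and 20.4 in CTRL high CHIR, and 79.5, 7198 and 3575 in β-catenin KO low CHIR. It met the CTRL criteria, which use a mean, through replicate 1, and in CTRL replicate 2 it was lower in high CHIR. In high CHIR, β-catenin KO was at least 2 times CTRL of the same date for 38 members in replicate 2 and for 41 in replicate 3, compared with 20.2% and 12% of 16691 genes.

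The β-catenin KO libraries of replicate 1 were not used by the rule and give 1 library against 1, so no test was possible. In low CHIR, 13 members (19.4%) were at least 3 times CTRL of that date, counting only genes with more than 3 reads in the β-catenin KO library. The share was 4.08% over 16691 genes, and 42 of the 682 other induced genes passed. CTRL low CHIR of replicate 1 did enter the rule as part of a mean. In all, 30 members (44.8%) were below CTRL, near the share over all genes (49.2%). Of the 58 members with more than 3 reads in that CTRL library, 11 were at least 3 times CTRL and 10 were under 50% of it. Of these 58 the highest ratios were those of Gap43, a growth cone protein, with 62.3 against 6.25 in CTRL (9.98 times), and Serpinb8 with 126 against 25 (5.03 times). Ifi204, an interferon-inducible gene, was 121 against 28.6 (4.25 times), and AU021092 with 11.8 against 1.79 and Egfl6 with 14 against 2.68 rest on 2 and 3 reads in CTRL. Krt39, Mmp10 and Spink2 had no read in β-catenin KO and 0.893 in CTRL, which is 1 read. Of the named members among the 58, Gm11578 had the lowest ratio, with 7.52 against 49.1 (0.153 times), and Lix1 followed with 46.2 against 240.1 (0.192 times). Sgk1, a serum and glucocorticoid regulated kinase, was 786 against 259 (3.04 times).

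**Figure D4:**
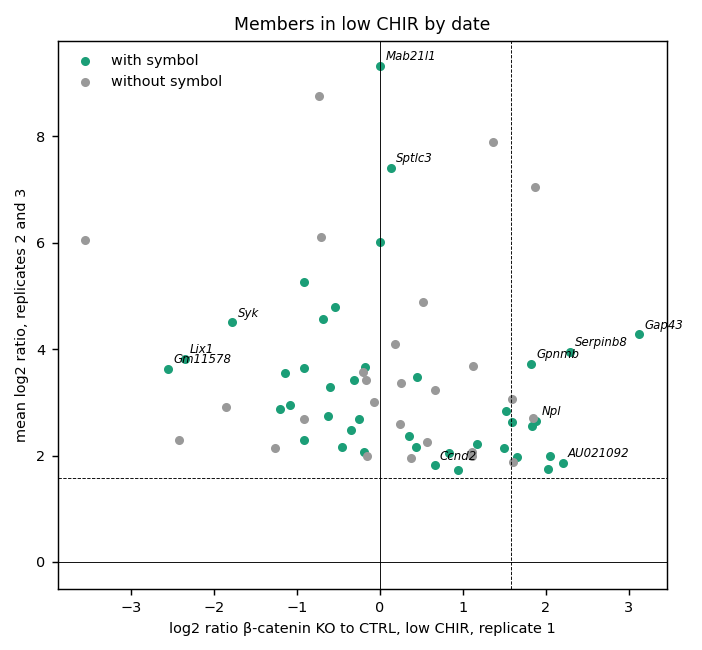
Each member by its log2 ratio of β-catenin KO to CTRL in low CHIR, with 1 added to each value, in replicate 1 (horizontal axis) and as the mean of replicates 2 and 3 (vertical axis, used to choose the members). Dashed lines mark 3 times; members spread from -3.55 to 3.13 in replicate 1 and all lie above 1.72 on the vertical axis.

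In high CHIR, replicate 1 of β-catenin KO was over 50% of the lowest CTRL library for 26 of 67 members. This held for 95% of 16691 genes and for 362 of the 682 other induced genes. Below the lowest CTRL library were 53 members (79.1%), against 28.8% of all genes and 517 of the 682 other induced genes (75.8%), among them Cthrc1 with 107, Sorbs2 with 344 and Syk with 67. High CHIR was at least 2 times low CHIR in that date of β-catenin KO for 32 members, compared with 5.72% of all genes and 147 of the 682 other induced genes. In the same libraries Axin2 was 14 and 18.5, Wnt4 30.1 and 252, Jag1 185 and 906, and Lhx1 14 and 183. Syk went from 2.15 to 67, Cthrc1 from 12.9 to 107 and Kit from 344 to 960.0. At least 2 times CTRL high CHIR of the same date were 2 members (2.99%), against 12.4% of all genes, and Npl, with 6.53 times, was one of them.

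The α-catenin KO and QCKO libraries took no part in the rule and allowed a test of the members with limma across all genes. In α-catenin KO, 56 of 67 members rose from low to high CHIR at an adjusted p under 0.05 and a log2 change over 0.5, and none fell, where 4.09% of 16411 genes were called higher. In QCKO, 54 rose and none fell, with 4.09% of all genes called higher. Both knockouts shared 51 of these calls. All 67 members reached the minimum mean of 10 over these 8 libraries, 12 of them only through high CHIR. Of the 55 members with a mean of at least 10 in the low CHIR libraries, a limit added after seeing the data, 44 and 42 were called higher, compared with 3.64% and 3.5% of 15951 such genes. The members had been chosen for induction in CTRL, and of the 682 other induced genes 307 and 328 were called higher. The median log2 changes of the members were 2.93 (α-catenin KO) and 3.29 (QCKO), against 1.46 and 1.41 for the other induced genes and 0.01 and -0.00 for all genes. The members were also the more strongly induced genes in CTRL, which entered the rule. There the member medians were 2.58, 2.62 and 2.70 in replicates 1 to 3, and those of the other induced genes 1.61, 1.74 and 1.53. With the members that had 3 or fewer reads in both low CHIR libraries set to 3 reads there, the medians in α-catenin KO and QCKO were again 2.93 and 3.29. Each of these members lay well above the median before, so the medians could hardly move. A fit with all 20 libraries called 25 and 28 members (1.53% and 1.82% of all genes), and a fit of the 8 with the date as a block called 64 and 66 (8.63% and 8.17%). Of the members with a symbol 38 of 41 were called in both knockouts, and of those without 13 of 26, while the block gave 40 of 41 and 23 of 26. Both high CHIR libraries lay above both low CHIR libraries for 63 members in α-catenin KO (24.6% of 16691 genes) and for 66 in QCKO (27.5%). Among the 682 other induced genes this held for 538 (78.9%) and 586 (85.9%).

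Examples from each role rose in both knockouts. Serpinb7 went from 0 and 0.849 to 959.6 and 415 in α-catenin KO and from 0 and 0 to 264 and 567 in QCKO. Cthrc1 was 25.8 and 95.1 in α-catenin KO low CHIR and 6681 and 8661 in high CHIR (log2 change 7.23 ± 0.49 SE, n = 2 against 2, limma adjusted p = 9.38e-05). In QCKO it was 48.6 and 36.6, then 7521 and 10503. Msx1 went from 0.86 and 2.55 to 85 and 314 in α-catenin KO and from 0.867 and 1.93 to 345 and 294 in QCKO. No fold or p is given for Serpinb7 and Msx1, which are among the 6 members in α-catenin KO and 7 in QCKO with 3 or fewer reads in both low CHIR libraries. The libraries did not overlap for any of these. Bmp7 went from 17.2 and 66.2 to 613 and 974 in α-catenin KO (log2 change 4.47 ± 0.64, limma adjusted p = 0.00405) and from 52 and 121 to 682 and 1408 in QCKO (3.61 ± 0.64). Ccnd2, with a smaller change, went from 8257 and 5190.5 to 39508 and 21279 in α-catenin KO (2.15 ± 0.31, limma adjusted p = 0.0041) and from 4631 and 6069 to 23621 and 20363 in QCKO (2.05 ± 0.31). The log2 changes of Kit were 4.10 ± 0.31 (α-catenin KO) and 5.04 ± 0.31 (QCKO), and those of Sorbs2 5.05 ± 0.29 and 5.13 ± 0.29, all 4 called.

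Of the named members, Sgk1 and Ifi204 were called in neither knockout. Sgk1 was 197 and 151 in α-catenin KO low CHIR and 666 and 225 in high CHIR (log2 change 1.16 ± 0.45, limma adjusted p = 0.171). In QCKO it was 179 and 199.6, then 368 and 234 (0.63 ± 0.45, limma adjusted p = 0.487). Ifi204 was 19.8 and 19.5, then 152 and 43.4 in α-catenin KO (1.996 ± 0.90, limma adjusted p = 0.237). In QCKO it was 64.2 and 8.68, then 310.3 and 116 (2.93 ± 0.90, limma adjusted p = 0.0918). When the date entered the limma fit as a block, Ifi204 was called in both knockouts (limma adjusted p = 0.00737 and 0.00048). Sgk1 was then called in α-catenin KO (limma adjusted p = 0.00996) but not in QCKO (limma adjusted p = 0.141). Fam163a was called in α-catenin KO only, and with the block in both (limma adjusted p = 0.00188 in QCKO), and no difference between the knockouts was called for it. Both Sgk1 and Ifi204 were among the 13 members at least 3 times CTRL in β-catenin KO replicate 1, and 8 of these 13 were called in both adhesion knockouts, or 10 with the block.

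**Figure D5:**
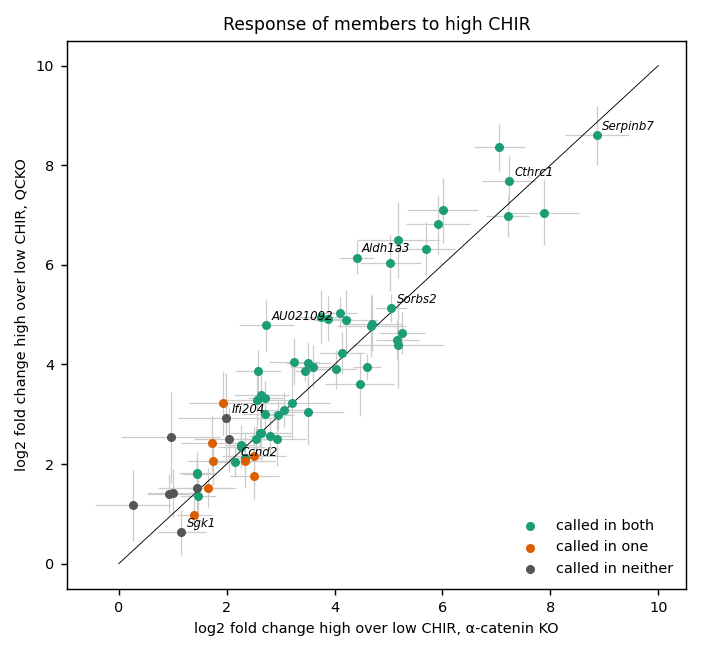
Log2 fold change of each member from low to high CHIR in α-catenin KO (horizontal axis) and in QCKO (vertical axis), with bars of 1 SE from limma, 2 libraries per group and the line of equal change. Of 67 members 51 were called in both, and Sgk1 and Ifi204 are the named members called in neither by this fit, which has no date block.

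Between α-catenin KO and QCKO no member was called in high CHIR (0.00609% of 16411 genes), none in low CHIR (0.00609%) and none for the difference in response (0%). At an unadjusted p under 0.05 there were 0, 6 (8.96%) and 2 (2.99%) members by limma, compared with 1.68%, 3.91% and 0.591% of all genes, and edgeR and DESeq2 also called 0 in each comparison. The differences in response ran from -2.05 to 0.86 on the log2 scale with a median SE of 0.67, so that differences of this order between the knockouts could not be resolved. The members at an unadjusted p under 0.05 for the difference in response were AU021092 and Aldh1a3. Aldh1a3 was 361 and 234 in α-catenin KO low CHIR and 113 and 155 in QCKO low CHIR, with 5235 and 7351 against 6903 and 12825 in high CHIR (response difference -1.73 ± 0.46, limma adjusted p = 1.00). AU021092 was 5.16 and 8.49 in α-catenin KO low CHIR and 0.867 and 0.964 in QCKO low CHIR, which is 1 read in each QCKO library.

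In low CHIR the adhesion knockouts can be set beside CTRL in the same way. At least 3 times CTRL of the same date were 2 members in each α-catenin KO library (2.99%), and 2 and 1 in the QCKO libraries (2.99% and 1.49%). Over all 16691 genes the shares were 0.905% and 2.19% in α-catenin KO, and 1.5% and 1.35% in QCKO. On the date that all 4 genotypes share, replicate 3, β-catenin KO low CHIR was above CTRL, α-catenin KO and QCKO for 67 of 67 members and for 28.2% of 16691 genes. The same β-catenin KO value chose the members as high, so nothing is read from this count. In high CHIR the members were above CTRL of the same date on both dates for 45 of 67 in α-catenin KO, compared with 26.7% of all genes, and for 49 in QCKO, compared with 36.7%. Among the other induced genes these counts were 164 and 225 of 682. The median ratios of the members to CTRL high CHIR were 1.38 and 1.56 in α-catenin KO and 1.87 and 1.49 in QCKO. Serpinb7 had 68, 37.4 and 72.9 in CTRL high CHIR, below all 4 adhesion knockout values in high CHIR. Dlx5, with 55.6, 319 and 136 in CTRL high CHIR, had 359 and 744 in α-catenin KO and 1038 and 784 in QCKO. CTRL high CHIR entered the rule, so these are descriptions.

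The pathway lists could be compared only with the 41 members that have a symbol, and Fzd6 was not on the Wnt list. Of 46 Wnt/β-catenin pathway and feedback genes 18 had an identifier, and Msx1 was the member among them, with Axin2, Lef1, Notum and Sp5 meeting the numbers but left out by name. In α-catenin KO, 8 of the 17 tested rose with CHIR (Axin2, Fzd10, Lef1, Msx1, Msx2, Notum, Sp5 and Tcf7) and 3 fell. In QCKO the same 8 rose and 5 fell. Of 17 nephron induction genes with an identifier, 14 were induced in CTRL but Npy was the member, and in α-catenin KO 12 rose and 2 fell, as did 11 and 2 in QCKO. Jag1, a Notch ligand of this list, was 145, 505 and 694 in CTRL low CHIR and 185, 664 and 1425 in β-catenin KO low CHIR, under the limit of 3 times on each date. All 8 self-renewal genes with an identifier were called lower in both knockouts. Of 16411 genes 672 were called higher in each knockout, and 538 (α-catenin KO) and 620 (QCKO) lower. Listed genes had an identifier only if the comparisons of the study named them, so they were not picked as other genes were. Bmp7 was the member among 11 BMP/TGF-β genes with an identifier, and no member was among the genes with an identifier in the Notch (6 of 16), FGF/ERK (4 of 19), p53 (6 of 10) and interferon (1 of 8) lists. Ifi204 was not on the interferon list.

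Markers of other cell types had few identifiers (6 of 13 for ureteric epithelium, 2 of 10 for stroma, 1 of 8 each for endothelium and leukocytes), and none was a member. The summed ureteric markers were 320.4 to 1457 in CTRL low CHIR and 508 to 1051 in β-catenin KO low CHIR. They were 891 to 1078 in CTRL high CHIR, 593 to 1156 in β-catenin KO high CHIR, and 1289 to 2322 over the α-catenin KO and QCKO high CHIR libraries. Tek, the endothelial marker measured, moved with CHIR as the members did, at 0 to 3.25 in CTRL low CHIR and 89.7 to 177 in CTRL high CHIR. It was 4.3, 3 and 4.8 in β-catenin KO low CHIR and 4.62, 85.3 and 46.8 in β-catenin KO high CHIR. The leukocyte marker Cd74 was 288 to 356 in β-catenin KO low CHIR and 240.1 to 362 in CTRL low CHIR. In the adhesion knockouts Tek was 5.16 and 7.64, then 92.7 and 383 with high CHIR in α-catenin KO, and 0.867 and 2.89, then 221 and 357 in QCKO. Tek and, of the ureteric markers, Gata3 and Hoxb7 were called higher with high CHIR in both adhesion knockouts. Of the other ureteric markers tested none was called in either knockout, and they went different ways. Tfap2b was 53.8 and 54 in QCKO low CHIR and 10.9 and 7.48 in high CHIR. Cdh1 was 34.8, 448 and 167 in CTRL low CHIR and 24.9, 34.2 and 50.2 in CTRL high CHIR. In QCKO it was 160 and 112, then 128 and 254, and in α-catenin KO 35.3 and 296, then 77.3 and 310. Wnt11 was higher with high CHIR in both adhesion knockouts, but at most 9.02. The stroma marker Tcf21 was called lower in both and Meis1 in QCKO, and their sum went from 5781 and 6196 to 2020 and 1414 in α-catenin KO and from 8324 and 6658 to 1829 and 1270 in QCKO. The part of other cells in the results was not tested.

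The promoters of members were searched for the Lef/Tcf letters CTTTGAT and CTTTGTT on both strands, in the 250 bases before each start in RefSeq (GRCm38.p6). They differ at 1 position, so that a site counts for one of them only. A promoter was found for 28 members, with 49 starts in all. Of these starts 5, each of another gene, held either motif (10.2%), as did 8.06% of all 32851 promoters and 5.73% of those of the other induced genes. Counted by gene, the shares were 17.9% of the members, 9.21% of all genes and 6.62% of the other induced genes. Enrichment was not tested. CTTTGAT was in 6.12% of member promoters and 3.21% of all, and CTTTGTT in 4.08% and 5.03%. As examples, the 3 with CTTTGAT are shown 5′ to 3′ in the direction of the gene, with the motif in capitals. It starts 32 bases before the start for Sv2b, 179 for Sgk1 and 16 for Arhgef3. Each gene has further starts in the table, 4 for Sv2b and Arhgef3 and 6 for Sgk1 in all.
Sv2b (chr7:75220020-75220269, minus strand): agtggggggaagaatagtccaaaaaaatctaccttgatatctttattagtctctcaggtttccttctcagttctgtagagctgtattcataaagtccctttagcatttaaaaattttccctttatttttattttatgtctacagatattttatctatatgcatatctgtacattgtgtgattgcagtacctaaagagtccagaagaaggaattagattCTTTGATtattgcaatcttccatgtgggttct
Sgk1 (chr10:21978422-21978671, plus strand): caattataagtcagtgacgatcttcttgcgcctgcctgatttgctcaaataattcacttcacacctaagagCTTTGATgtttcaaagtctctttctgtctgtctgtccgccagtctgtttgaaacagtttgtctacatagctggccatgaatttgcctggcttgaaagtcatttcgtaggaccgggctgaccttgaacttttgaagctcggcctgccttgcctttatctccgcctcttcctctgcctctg
Arhgef3 (chr14:27361139-27361388, plus strand): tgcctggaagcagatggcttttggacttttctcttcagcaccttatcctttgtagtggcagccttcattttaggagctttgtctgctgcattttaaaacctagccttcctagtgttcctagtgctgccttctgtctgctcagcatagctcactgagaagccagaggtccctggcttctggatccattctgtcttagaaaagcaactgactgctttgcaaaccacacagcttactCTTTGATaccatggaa
The values of these 3 genes differed. Sv2b, a synaptic vesicle protein, was 4.46, 4.33 and 3.18 in CTRL low CHIR, 545, 128 and 210.0 in CTRL high CHIR, and 6.45, 64 and 41.6 in β-catenin KO low CHIR. Arhgef3 and Sv2b were called higher in both adhesion knockouts. Sgk1, with positive changes in both, was called in neither by the main fit and in α-catenin KO with the date as a block. Cux2 and Sorbs2 held CTTTGTT.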

How the data were processed

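Messenger RNA of 20 libraries of sorted mouse NPCs was sequenced in pairs of reads (SMARTer Ultra Low kit). The submitters' processing notes name bcl2fastq, STAR, Salmon, featureCounts of Subread and DESeq2, with the builds GRCm38, mm10 and GRCh38. The deposited table holds normalized counts, a signal value that the authors made by dividing the reads of each gene by a size factor of the library. All values came out as whole reads within 0.01 once multiplied back. The authors' comparison tables (fold changes, p-values) were read only for their pairs of identifier and symbol.

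Members and gene lists were chosen with earlier results of these data known. Genes with a mean of at least 10 in the 8 α-catenin KO and QCKO libraries were tested on log2(normalized count + 1) with limma 3.58.1 in R 4.3.3 (trend), Benjamini-Hochberg adjusted over 16411 genes, and called at an adjusted p under 0.05 and a log2 change over 0.5. A fold on this scale understates the change of low genes. edgeR 4.0.16 and DESeq2 1.42.0 on recovered reads were alternatives, with other filters, pseudocounts, scalings, sets of libraries and each library left out. The limma script was tested on simulated data. Genes were named by role, level and size of ratio, in each case with their values known. Replicates carry different dates in the labels, which pair the groups; the step dated is not given. The correlation of deviations from the group mean between low and high CHIR of the same group and number was 0.0474 to 0.721. No gene list had an identifier for 80% of its genes, so that checks over whole lists were void. Intervals from read counts would cover counting error only, and none is given.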

Additional observations from a re-analysis of the deposited data

How the results depend on the processing

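The number of members called higher in high CHIR fell from 56 to 25 (α-catenin KO) and from 54 to 28 (QCKO) when all 20 libraries shared one estimate of the spread, which then includes the β-catenin KO libraries that differ between dates. Under the other alternatives it was 40 to 64 and 39 to 66, lowest with a mean of at least 100, which leaves fewer genes, and highest with the date as a replicate block (64 and 66). Over all genes the number called higher was 672 in each, 255 and 304 with all 20 libraries, and 1416 and 1340 with the block. The block turned Ifi204 into a call in both knockouts, Sgk1 into one in α-catenin KO and Fam163a into one in QCKO. Sgk1 in QCKO was the one response of a member with a symbol not called under it. Leaving out 1 library at a time gave 44 to 53 and 41 to 59. No member was called between α-catenin KO and QCKO under any alternative run. Over 32 members picked by rule, 6 of them without a symbol, 562 of 599 single-gene values under alternatives kept their side of the threshold for the α-catenin KO response, as did 563 for that of QCKO, while none of these changed direction.

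The size of the set followed the limits chosen. It was 103 with 2 times in place of 3 times CTRL, 41 with a symbol required, and 10 with reads scaled to CPM, by library total, where the minimum of 50 is a far higher one. The last was therefore repeated with reads scaled to the mean library total, added after seeing the data as was the symbol requirement, which gave 64. Other limits gave 46 to 100, and leaving out 1 CTRL replicate 62 to 69. In replicate 1, 20 members (29.9%, against 10% of all genes) were at least 2 times CTRL in place of 13 at 3 times, and 14 were over the lowest CTRL high CHIR library in place of 26 over 50% of it. The median log2 ratio of 0.18 became -0.24 against the mean of the 3 CTRL low CHIR libraries. With 2 libraries per group, differences between the knockouts of the size of the SE could not be resolved, and genes with 0 to 3 reads have no usable ratio.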
